A study of Mus musculus with 18 samples.

Results

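The genes described here are the Wnt ligands, their Frizzled receptors and Lrp coreceptors, the secreted antagonists of the Sfrp and Dkk families and the pathway gene *Axin2*, measured by bulk poly-A RNA-seq in mouse tail tendon fibroblasts (TFs). They were chosen by gene symbol: every row of the count table named as a Wnt ligand, a Frizzled (Fzd) receptor, an Sfrp or a Dkk, plus *Lrp5*, *Lrp6*, *Axin2* and *Frzb*. The rule found 41 of 55491 rows, of which 19 were Wnt ligands, 10 Frizzled receptors, 2 Lrp coreceptors, 5 Sfrp family members with *Frzb*, and 4 Dkk family members, besides *Axin2*.

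TFs were grown out of the tail tendons of mice of both sexes aged 4 to 6 months, passaged, and held for 4 days in either 20% O2 or 1% O2. Ctrl TFs came from Cre-negative mice, which the labels call wild-type and the study's methods give as *Hif1a* flox/flox. In cKO TFs the floxed *Hif1a* gene, which encodes the oxygen-sensitive transcription factor HIF-1α, had been exposed in the mouse to Cre made from the *Scx* promoter (Scx-Cre; Hif1a fl/fl), so a cell that never used this tendon promoter keeps the gene. The third arm was Ctrl TFs given Cre gesicles, vesicles that carry the recombinase into cultured cells. Whether these Ctrl cells held a floxed *Hif1a* for that Cre to act on was not tested. Each of the 6 groups had 3 libraries, and all were grown on plastic in serum-containing medium. The labels number the replicates without naming the mouse behind each one, so p-values measure the spread between these libraries, which the study's methods describe as 3 mice.

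Wnt proteins are secreted, lipid-modified signals that bind the cysteine-rich domain of a Frizzled receptor. With Lrp5 or Lrp6 as coreceptor they stabilise β-catenin, which acts with TCF factors on target genes such as *Axin2*, while ligands such as Wnt5a mostly act through β-catenin-independent branches that steer cell polarity and movement. Sfrp proteins and Frzb bind Wnt proteins outside the cell, Dkk1 and Dkk2 bind Lrp coreceptors, and in tendon the pathway is known for its part in matrix turnover and in the choice between tendon, cartilage and bone fates.

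Library totals ran from 6857558 to 51806453 estimated counts, and 17 of the 18 libraries held 26967440 or more. The shallow library was cKO 1% O2 replicate 1, in which 3 counts, taken as the detection floor, equal 0.437 CPM (counts scaled to library size), against 0.0579 to 0.111 CPM in the others. Floors and intervals cover counting error only. The 9 tendon fibroblast markers were detected in every group. They summed to 10803 to 12796 CPM in Ctrl 20% O2 and 5226 to 10109 in cKO 20% O2, which did not overlap, to 5730 to 13142 in Ctrl 1% O2 and 5541 to 9240 in cKO 1% O2, and to 8000 to 14477 in the gesicle arm. The 4 mural cell markers summed to 93.2 to 159 CPM in Ctrl 20% O2, 46.2 to 91.3 in Ctrl 1% O2, 35.7 to 47.0 in cKO 20% O2 and 29.5 to 48.6 in cKO 1% O2. The 4 endothelial markers summed to 27.9 to 45.5 CPM in 20% O2 and 11.5 to 27.6 in 1% O2 in Ctrl TFs, to 37.2 to 76.6 and 16.8 to 40.0 in cKO TFs, and to 25.8 to 61.3 and 17.4 to 25.2 in the gesicle arm. Nearly all of this sum was *Tek* (11.3 to 76.5 CPM), while *Pecam1*, *Cdh5* and *Kdr* reached at most 0.291, 0.650 and 0.644 CPM. The 4 skeletal muscle markers summed to 22.0 to 41.8 CPM in Ctrl 20% O2, 9.32 to 15.0 in cKO 20% O2, 23.5 to 29.6 in Ctrl 1% O2 and 16.4 to 19.7 in cKO 1% O2, with *Ckm* at 0 in all groups and *Myod1* and *Myog* at 0 in both Ctrl groups, where the sum is *Acta1* alone. The other markers summed to 0.925 to 4.08 CPM for leukocytes, 3.33 to 8.11 for epidermis, 5.34 to 16.3 for Schwann cells and 24.2 to 51.2 for chondrocytes, and adipocyte markers to at most 0.116. Most of the epidermal sum was *Krt10* (3.27 to 8.11 CPM), of the Schwann sum *S100b* (4.59 to 15.1) and of the chondrocyte sum *Sox9* (20.6 to 50.8). The part of these cells in the results was not tested, and in bulk RNA fewer cells of a type and less RNA per cell cannot be told apart. *Hif1a* counts overlapped between cKO and Ctrl libraries, but they sum over the whole gene and so check nothing about a deleted part. By *Xist* and *Ddx3y*, Ctrl replicate 1 and cKO replicates 2 and 3 were male and the rest female, in both O2 levels and in the gesicle arm.

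Of the 41 genes, 27 passed the filter on low counts and were tested in the fits of 12 and of 18 libraries, and 10 stayed at 3 counts or fewer in every library. The 10 were *Wnt1*, *Wnt3*, *Wnt3a*, *Wnt7a*, *Wnt8a*, *Wnt8b*, *Wnt9b*, *Dkk1*, *Dkk4* and *Sfrp5*, with *Wnt9b*, *Dkk4* and *Sfrp5* at 0 throughout. *Dkk1*, a classical Lrp6-binding inhibitor, had 1 count in all 18 libraries together. The remaining 4, *Wnt2b*, *Wnt6*, *Wnt10a* and *Fzd10*, had more than 3 counts in at least 1 library but too few for these fits.

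Per kilobase of merged exon length, the most abundant of these transcripts were antagonists. *Dkk3*, a divergent Dkk member, averaged 179 CPM per kb over the 18 libraries, *Dkk2* 133 and *Sfrp2* 128. Among the receptors *Fzd1* (29.7 CPM per kb), *Fzd7* (21.8) and *Fzd2* (14.9) led, and together they made up 81.7 to 86.7% of the summed Frizzled level in a library. *Wnt5a* (8.23 CPM per kb), *Wnt2* (8.15) and *Wnt5b* (6.72) made up 72.9 to 91.7% of the summed ligand level, and *Lrp6* (4.42) stood above *Lrp5* (0.995). *Axin2* was low, at 0.0543 CPM per kb and at most 28 counts in a library.

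**Figure D1:**
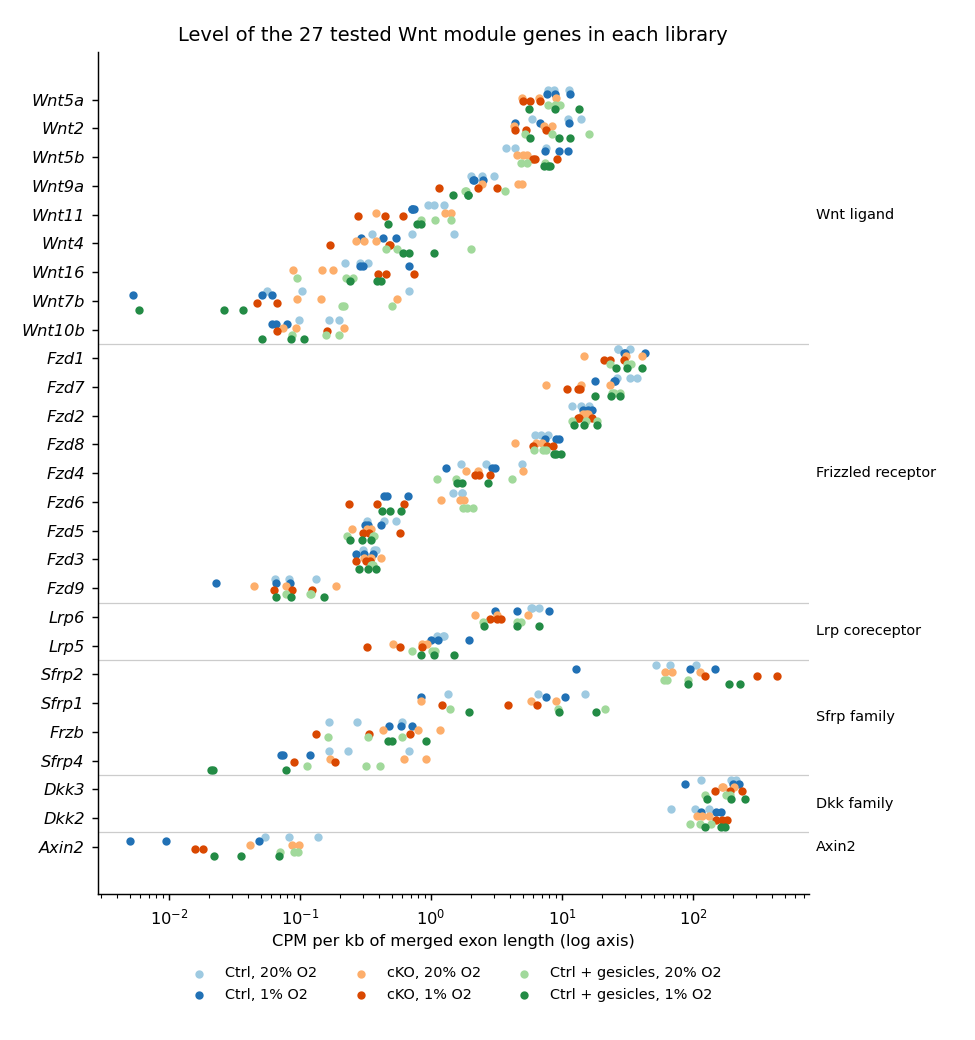
Level of the 27 tested genes in each library, in CPM per kb of merged exon length on a log axis, with 1 point per library coloured by group and genes ordered by role and mean level. *Dkk3*, *Dkk2* and *Sfrp2* lie above all ligands and receptors in mean level, and 4 values of 0, all in cKO 1% O2 replicate 1, are not drawn.

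The level was also summed over each role by group. Ligands summed to 30.1 ± 3.50 CPM per kb (mean ± SD, n = 3) in Ctrl 20% O2, 30.3 ± 3.44 in Ctrl 1% O2, 24.4 ± 2.22 in cKO 20% O2 and 22.5 ± 1.27 in cKO 1% O2. The 3 cKO libraries lay below the 3 Ctrl libraries at each O2 level, a description with no test, and the sums in the gesicle arm were 29.8 ± 5.95 and 29.7 ± 4.29. Frizzled receptors summed to 87.6 ± 7.24 and 84.9 ± 11.8 CPM per kb in Ctrl TFs in 20% and 1% O2 and to 69.9 ± 24.3 and 63.0 ± 9.09 in cKO TFs. The Sfrp family, of which *Sfrp2* was 60.8 to 99.4% in a library, had the widest range of sums, from 21.2 to 443 CPM per kb.

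The sequence before the transcription start is shown for 3 genes: *Wnt16* and *Wnt5b*, the ligands with the smallest p among ligands in the O2 comparisons of cKO and Ctrl TFs, and *Axin2*, the feedback gene of the pathway. Each run is the 250 bases before the start in the RefSeq promoter table (GRCm38.p6), written 5′ to 3′ on the strand of the gene, with capitals for the letters of a HIF core motif (ACGTG or GCGTG, either strand) or a TCF core motif (CTTTGAT or CTTTGAA, either strand). They lie at chr6:22287977-22288226 on the plus strand for *Wnt16*, chr6:119544348-119544597 on the minus strand for *Wnt5b* (the most upstream of its 3 starts) and chr11:108920099-108920348 on the plus strand for *Axin2*.
Wnt16: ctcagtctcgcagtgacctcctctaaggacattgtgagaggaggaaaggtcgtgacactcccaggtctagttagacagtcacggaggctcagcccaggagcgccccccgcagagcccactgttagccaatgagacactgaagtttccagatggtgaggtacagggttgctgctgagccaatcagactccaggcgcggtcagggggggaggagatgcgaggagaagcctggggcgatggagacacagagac
Wnt5b: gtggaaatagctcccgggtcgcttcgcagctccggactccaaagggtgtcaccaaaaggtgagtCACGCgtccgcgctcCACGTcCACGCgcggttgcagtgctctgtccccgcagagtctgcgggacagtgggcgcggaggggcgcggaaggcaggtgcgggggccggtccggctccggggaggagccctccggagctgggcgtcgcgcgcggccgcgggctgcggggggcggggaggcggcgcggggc
Axin2: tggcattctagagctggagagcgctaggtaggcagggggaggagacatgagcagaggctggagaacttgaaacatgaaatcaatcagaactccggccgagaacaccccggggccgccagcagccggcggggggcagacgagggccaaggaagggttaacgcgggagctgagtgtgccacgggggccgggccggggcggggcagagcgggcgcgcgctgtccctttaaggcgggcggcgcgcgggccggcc
The *Wnt5b* run holds 3 HIF cores, between 186 and 161 bases before the start, and the *Wnt16* and *Axin2* runs hold neither motif. In windows that run on for 50 bases past the start, a HIF core was found in 43.8% of all 32851 promoters and in 16 of the 30 windows of the 27 genes of this set that the table lists, and a TCF core in 8.65% and in 3 of 30. A match is a run of letters and not a measured site. *Fzd6* was not among the genes listed.

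In 1% O2 the receptor *Fzd6*, known for its part in planar cell polarity, fell in all 3 arms and was the only gene of the set called in more than 1 of them. The call rule was an edgeR adjusted p under 0.05 over all genes tested and a fold change of at least 1.5. In Ctrl TFs *Fzd6* was the only one of 27 called, where 1.88% of all 15850 genes were called. In cKO TFs 2 of 27 were called, *Fzd6* lower and the ligand *Wnt16* higher, against 2.1% of all genes, and in gesicle-treated TFs *Fzd6* alone, against 2.41% of 16174 genes. The 3 arms share no libraries, but same-numbered Ctrl and gesicle-treated libraries were read as coming from the same mice, so those arms are not independent of each other.

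*Fzd6* (chr15:39006034-39038188, plus strand, GRCm38) was at 8.23, 8.36 and 7.06 CPM in the 3 Ctrl 20% O2 libraries and at 2.24, 3.22 and 2.10 CPM in Ctrl 1% O2. It was at 8.53, 5.70 and 8.02 CPM in cKO 20% O2 and at 1.14, 2.99 and 1.85 CPM in cKO 1% O2. The gesicle arm gave 8.51, 10.1 and 9.11 CPM in 20% O2 and 2.03, 2.85 and 2.35 CPM in 1% O2. Every 1% O2 library lay below every 20% O2 library, across arms as well as within them. The log2 fold change was -1.64 ± 0.30 (SE; adjusted p = 0.0154) in Ctrl TFs, -1.81 ± 0.31 (adjusted p = 0.0114) in cKO TFs and -1.94 ± 0.27 (adjusted p = 0.00097) in the gesicle arm, which is 3.12-fold lower in Ctrl TFs. The difference of the Ctrl and cKO responses was -0.17 on the log2 scale (95% CI -1.08 to 0.74; adjusted p = 1). With 3 libraries a group the call in Ctrl TFs was lost when any of 4 libraries was left out: Ctrl 1% O2 replicate 1 (adjusted p = 0.069) or 3 (0.0763), or Ctrl 20% O2 replicate 1 (0.0668) or 2 (0.0581). In cKO TFs it was lost without cKO 1% O2 replicate 3 (0.0563) or cKO 20% O2 replicate 3 (0.0565) and in a fit of these 2 groups alone (0.0861), and in the gesicle arm it held without any 1 library, with log2 values between -2.08 and -1.83.

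*Wnt16*, a ligand best known from bone, was at 0.645, 0.382 and 0.771 CPM in cKO 20% O2 and at 1.71, 1.96 and 3.25 CPM in cKO 1% O2, on 12 to 130 counts a library. The groups did not overlap, and the log2 fold change was 1.98 ± 0.44 (3.94-fold higher; adjusted p = 0.0386). It passed when cKO 20% O2 replicate 2 was left out (adjusted p = 0.0382) and for none of the other 5 libraries, whose absence gave up to 0.109. It was also not called in a fit of these 2 groups alone (1.99; adjusted p = 0.113). Ctrl TFs held 0.965, 1.45 and 1.25 CPM in 20% O2 and 1.24, 2.95 and 1.32 CPM in 1% O2, which overlapped, with a log2 fold change of 0.60 ± 0.41 (adjusted p = 0.533). The gesicle arm gave 0.87 ± 0.43 (adjusted p = 0.315). The test of the difference between the cKO and Ctrl responses gave 1.38 (95% CI 0.09 to 2.68), with an unadjusted p of 0.0386 and an adjusted p of 1.

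**Figure D2:**
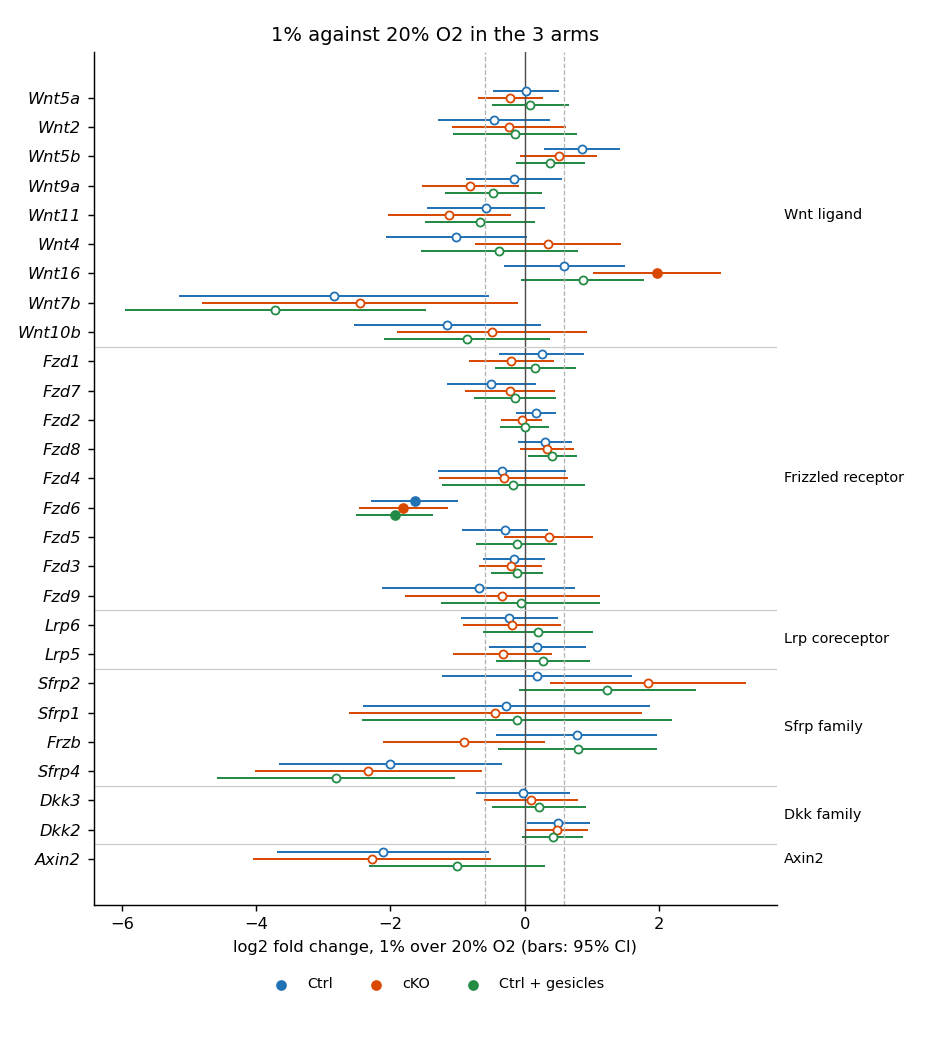
Log2 fold change of 1% over 20% O2 for the 27 tested genes in Ctrl, cKO and gesicle-treated Ctrl TFs, with 95% confidence intervals from edgeR. Filled points are called genes, open points are not, and dashed lines mark a 1.5-fold change. *Fzd6* is filled in each of the 3 arms, at -1.64, -1.81 and -1.94, and *Wnt16* in cKO alone, at 1.98.

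The other ligands were not called by edgeR in any arm. *Wnt5b*, a close relative of *Wnt5a*, was at 9.92, 19.9 and 11.6 CPM in Ctrl 20% O2 and at 29.5, 25.2 and 19.8 CPM in Ctrl 1% O2, where replicate 3 lay just under the highest 20% O2 library. Its log2 fold change was 0.86 ± 0.26 in Ctrl TFs (adjusted p = 0.13), 0.51 ± 0.26 in cKO TFs (0.307) and 0.39 ± 0.24 in the gesicle arm (0.443). DESeq2 gave 0.83 with an adjusted p of 0.0426 in Ctrl TFs.

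*Wnt7b* is a ligand of the β-catenin branch in several tissues. In the gesicle arm it was at 1.07, 2.47 and 1.03 CPM in 20% O2 and at 0.029, 0.129 and 0.181 CPM in 1% O2, the latter on 1, 4 and 6 counts. The groups stood apart, at a log2 fold change of -3.72 ± 1.06 (adjusted p = 0.0701 in edgeR and 0.00552 in DESeq2). In Ctrl TFs the change was -2.84 ± 1.06 (adjusted p = 0.215) and replicate 2 of the 20% O2 group, at 3.34 CPM, stood over 0.509 and 0.274 in the others. In cKO TFs it was -2.46 ± 1.08 (adjusted p = 0.236).

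*Wnt5a*, the most abundant ligand, was at 88.1, 68.2 and 61.3 CPM in Ctrl 20% O2 and at 90.1, 69.4 and 60.4 CPM in Ctrl 1% O2, nearly the same library by library. The change was 0.02 on the log2 scale (95% CI -0.46 to 0.51). *Wnt2*, a ligand of the β-catenin branch, was at 31.6, 13.3 and 25 CPM in Ctrl 20% O2 and at 15.3, 9.89 and 25.5 CPM in Ctrl 1% O2, and *Wnt4* at 6.30, 1.48 and 2.98 CPM and at 2.26, 1.22 and 1.79 CPM. Both sets overlapped, and neither passed the test (adjusted p = 0.617 and 0.329). The untested ligands *Wnt10a*, *Wnt2b* and *Wnt6* never exceeded 19, 9 and 7 counts in a library.

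None of the abundant receptors was called in an O2 comparison. *Fzd7* was at 118 to 170 CPM in Ctrl 20% O2 and at 80.7 to 116 CPM in Ctrl 1% O2, 1.41-fold lower without overlap (adjusted p = 0.472). *Fzd1* had log2 fold changes of 0.26, -0.20 and 0.16 in Ctrl, cKO and gesicle-treated TFs, *Fzd2* of 0.17, -0.04 and 0.00, and *Fzd7* of -0.49, -0.22 and -0.15. The interval of *Fzd2* in Ctrl TFs, from -0.13 to 0.47, excluded a 1.5-fold change, and those of *Fzd1* (-0.38 to 0.89) and *Fzd7* (-1.16 to 0.17) did not. *Fzd8* had 0.31, 0.34 and 0.41, with adjusted p of 0.453, 0.333 and 0.218. The coreceptors *Lrp5* and *Lrp6* had values between -0.33 and 0.27, none of which passed the test.

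*Fzd10* was too low for the fits. Its counts were 9, 6 and 9 in Ctrl 20% O2 and 0, 1 and 0 in Ctrl 1% O2, a ratio of 25 between the group sums (exact 95% interval 4.08 to 1028, counting error only). In the gesicle arm they were 11, 2 and 11 against 3, 0 and 0 (5.71, interval 1.74 to 29.6). In cKO TFs they were 3, 2 and 11 against 0, 0 and 1 (11.8, interval 1.83 to 493). The 20% O2 group had the higher sum in each arm, and these intervals carry no spread between cultures. *Fzd10* falls outside the rule for named genes and was named after its values were seen.

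Among the antagonists, *Sfrp2* was at 148, 131 and 245 CPM in cKO 20% O2 and at 267, 657 and 939 CPM in cKO 1% O2. All 3 of the 1% O2 libraries lay above the 20% O2 libraries, at 1.84 ± 0.67 on the log2 scale (adjusted p = 0.166). *Sfrp2* was called there by limma voom with sample quality weights (1.49; adjusted p = 0.0366) and by edgeR without the filter on low counts (1.85; adjusted p = 0.0438). Ctrl TFs held 113, 143 and 226 CPM in 20% O2 and 27.7, 202 and 317 CPM in 1% O2, where replicate 1 was the lowest library of all and the groups overlapped (log2 0.19 ± 0.65; adjusted p = 0.931). The gesicle arm held 137, 128 and 198 CPM and then 197, 402 and 491 CPM (1.24 ± 0.62; adjusted p = 0.32). Replicate 3 was the highest in all 6 groups, a pattern of holding 1 replicate number at the top that 1.08% of the 16174 genes showed.

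*Sfrp4*, a secreted inhibitor found in bone, had log2 fold changes of -2.01, -2.33 and -2.81 in the 3 arms (adjusted p = 0.224, 0.134 and 0.0843). DESeq2 called it in cKO TFs (-2.41; adjusted p = 0.0228) and in the gesicle arm (-2.84; adjusted p = 0.00991). The cKO libraries held 2.58, 3.79 and 0.703 CPM in 20% O2 and 0, 0.777 and 0.375 CPM in 1% O2, which overlapped, and the 0 lies in the shallow library, where it allows up to 0.437 CPM. *Sfrp1* split by replicate number and not by O2: replicate 2 held 3.67 to 8.51 CPM in the 6 groups, and the other 12 libraries held 16.8 to 92.6 CPM. The lowest library carried the same number in all 6 groups for 1.04% of all genes and, in the set, for *Sfrp1* alone. The number 2 libraries of Ctrl and cKO TFs differed in sex. Its log2 fold change in Ctrl TFs was -0.27 (95% CI -2.41 to 1.87), an interval that holds changes of several-fold either way.

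*Frzb*, also called Sfrp3, was at 0.536, 1.95 and 0.882 CPM in Ctrl 20% O2 and at 1.90, 2.29 and 1.56 CPM in Ctrl 1% O2 (log2 0.78 ± 0.55; adjusted p = 0.542). In cKO TFs it was at 3.80, 1.40 and 2.58 CPM and then at 0.427, 1.09 and 2.25 CPM (-0.90 ± 0.56; adjusted p = 0.386). The 1% O2 value was the higher of each same-numbered pair in Ctrl TFs and the lower in cKO TFs, and the test of the difference gave -1.68 (95% CI -3.39 to 0.02; adjusted p = 1). The value of 0.427 CPM, in the shallow library, rests on 3 counts, and the other 2 numbered pairs of cKO TFs differed by -0.25 and -0.16 on the log2(CPM + 0.5) scale against -2.21 in the first.

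*Dkk2* was at 251, 490 and 384 CPM in Ctrl 20% O2 and at 423, 607 and 559 CPM in Ctrl 1% O2, higher in each numbered pair but overlapping as groups. Its log2 fold changes of 0.50, 0.48 and 0.42 in the 3 arms had SEs of 0.21 to 0.22 and adjusted p of 0.274, 0.24 and 0.333. *Dkk3* was at 385, 713 and 658 CPM in Ctrl 20% O2 and at 289, 755 and 680 CPM in Ctrl 1% O2, with log2 fold changes of -0.02, 0.10 and 0.22 in the 3 arms. Replicate 1 was the lowest for both genes in every Ctrl and gesicle group.

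*Axin2*, which encodes a scaffold of the β-catenin destruction complex, was at 0.751, 0.295 and 0.456 CPM in Ctrl 20% O2 and at 0.0276, 0.268 and 0.0518 CPM in Ctrl 1% O2, on 1, 9 and 2 counts. It was at 0.538, 0.229 and 0.476 CPM in cKO 20% O2 and at 0, 0.0864 and 0.100 CPM in cKO 1% O2. In the gesicle arm it was at 0.533, 0.385 and 0.493 CPM and then at 0.377, 0.194 and 0.120 CPM. The 1% O2 libraries lay below those of 20% O2 in each arm. The log2 fold changes were -2.11 ± 0.73, -2.27 ± 0.82 and -1.01 ± 0.62, and edgeR called none (adjusted p = 0.18, 0.16 and 0.424). Limma voom with sample quality weights called *Axin2* lower in Ctrl TFs (-2.66; adjusted p = 0.00963) and in cKO TFs (-2.25; 0.00637). A count of 0 in cKO 1% O2 replicate 1 allows up to 0.437 CPM, which lies within the range of the 20% O2 group.

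**Figure D3:**
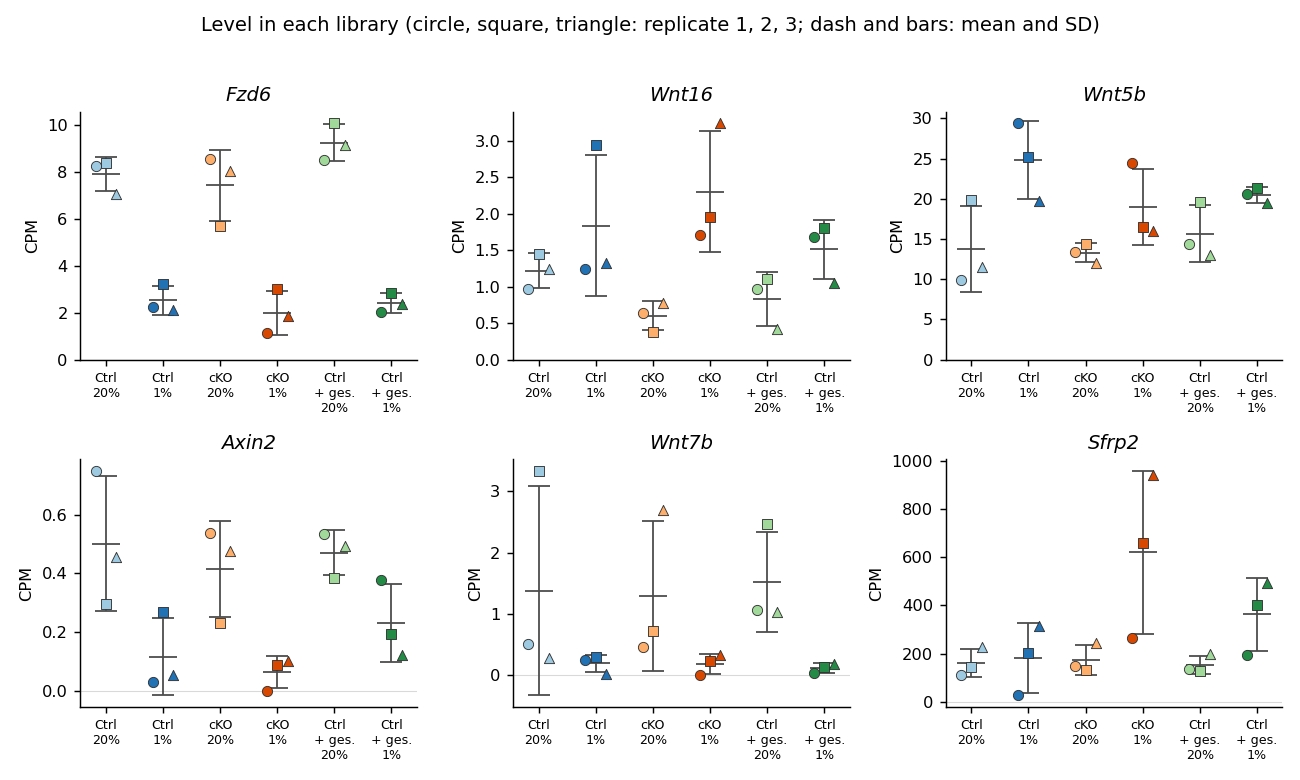
Level in CPM (linear axes) of *Fzd6*, *Wnt16*, *Wnt5b*, *Axin2*, *Wnt7b* and *Sfrp2* in each of the 18 libraries, with the mean and SD of each group of 3. *Fzd6* is at 5.70 CPM or more in 20% O2 and at 3.22 CPM or less in 1% O2, while *Sfrp2* spreads from 267 to 939 CPM within cKO 1% O2.

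Over the whole set, 6 of 27 genes did not overlap between 1% and 20% O2 in Ctrl TFs, all lower in 1% O2 (*Fzd6*, *Axin2*, *Sfrp4*, *Fzd7*, *Wnt10b* and *Wnt11*), where 30% of all genes did not overlap. In cKO TFs 7 of 27 did not overlap, 4 higher (*Wnt16*, *Sfrp2*, *Dkk2*, *Wnt5b*) and 3 lower (*Fzd6*, *Axin2*, *Wnt7b*), against 20.6% of all genes. In the gesicle arm there were 5, *Fzd8* higher and *Fzd6*, *Axin2*, *Sfrp4* and *Wnt7b* lower, against 24%. The set's median log2 fold change was -0.23 in Ctrl TFs, -0.22 in cKO TFs and -0.11 in the gesicle arm, beside 0.00, -0.03 and -0.02 over all genes tested. Of 6 genes listed as a check of the O2 treatment, *Slc16a3*, *Ndufa4l2*, *Pdk1* and *Ankrd37* were called higher in all 3 arms. *Hilpda* and *Vegfa* were on the same list, and edgeR called neither in any arm. *Hilpda* stood at log2 0.33 in Ctrl TFs (adjusted p = 0.424), 0.47 in cKO TFs (0.202) and 0.33 in the gesicle arm (0.361). *Vegfa* stood at log2 0.18 in Ctrl TFs (adjusted p = 0.747), 0.53 in cKO TFs (0.225) and 0.56 in the gesicle arm (0.189).

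The loss of *Hif1a* was addressed by comparing cKO with Ctrl TFs at each O2 level, and in the sums of the 2 same-numbered libraries of a genotype. The cKO numbers were not read as mice, so a summed cKO profile may hold more than 1 mouse. No gene of the set was called by edgeR in any of these comparisons, which use the same Ctrl libraries as the O2 comparison above. The receptor *Fzd7* and the coreceptors *Lrp5* and *Lrp6* had the most negative log2 fold changes among the receptors and coreceptors at both O2 levels, and other tools called some of them. In 20% O2 0.347% of all genes were called, in 1% O2 0.0379% and in the sums 0.15% of 16715. At an unadjusted p under 0.05 with the same fold, 4 of 27 passed in 20% O2, all lower in cKO (*Fzd7*, *Wnt4*, *Wnt16*, *Lrp6*), against 8.53% of all genes. In 1% O2 it was 4 of 27 (*Lrp5*, *Wnt5a* and *Fzd7* lower, *Sfrp2* higher) against 9.77%, and in the sums 4 of 28 (*Fzd7*, *Lrp5*, *Lrp6*, *Wnt2b*, all lower) against 7.57%.

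*Fzd7*, a receptor widely used by Wnt proteins in stem and progenitor cells, was at 150, 118 and 170 CPM in Ctrl 20% O2 and at 104, 33.9 and 63.5 CPM in cKO 20% O2. In 1% O2 it was at 80.7, 113 and 116 CPM in Ctrl TFs and at 49.8, 60.0 and 61.9 CPM in cKO TFs. All cKO libraries lay below all Ctrl libraries at each O2 level. The part of sex, which was unevenly split between the genotypes, was not tested. The log2 fold change was -1.13 ± 0.31 in 20% O2 (adjusted p = 0.164), -0.85 ± 0.31 in 1% O2 (0.237) and -0.89 ± 0.24 in the sums (0.213). DESeq2 called it in 20% O2 (-1.14; adjusted p = 0.0203) and in the sums (-0.90; 0.0156), and so did edgeR in 20% O2 without cKO 20% O2 replicate 1 (-1.58; 0.0399) and in the sums without cKO replicate 1 (-1.19; 0.0429). The summed mural, tendon fibroblast and skeletal muscle markers were also lower in cKO than in Ctrl 20% O2 without overlap, and the muscle sum in 1% O2 as well. Their part in the *Fzd7*, *Lrp5* and *Lrp6* values was not tested.

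*Lrp5* was at 12.3, 10.8 and 12 CPM in Ctrl 20% O2 and at 9, 5.02 and 8.25 CPM in cKO 20% O2. In 1% O2 it was at 9.77, 19.0 and 11.0 CPM in Ctrl TFs and at 3.13, 5.61 and 8.30 CPM in cKO TFs. The genotypes stood apart at both O2 levels, at log2 fold changes of -0.66 ± 0.34 (adjusted p = 0.379) and -1.18 ± 0.34 (0.207), and DESeq2 called the second (adjusted p = 0.0399). *Lrp6* was at 80.2, 78.9 and 90.4 CPM in Ctrl 20% O2 and at 74.5, 29.6 and 43.8 CPM in cKO 20% O2 (-0.76 ± 0.34; adjusted p = 0.335), and its 1% O2 groups overlapped (-0.73 ± 0.34; 0.298).

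**Figure D4:**
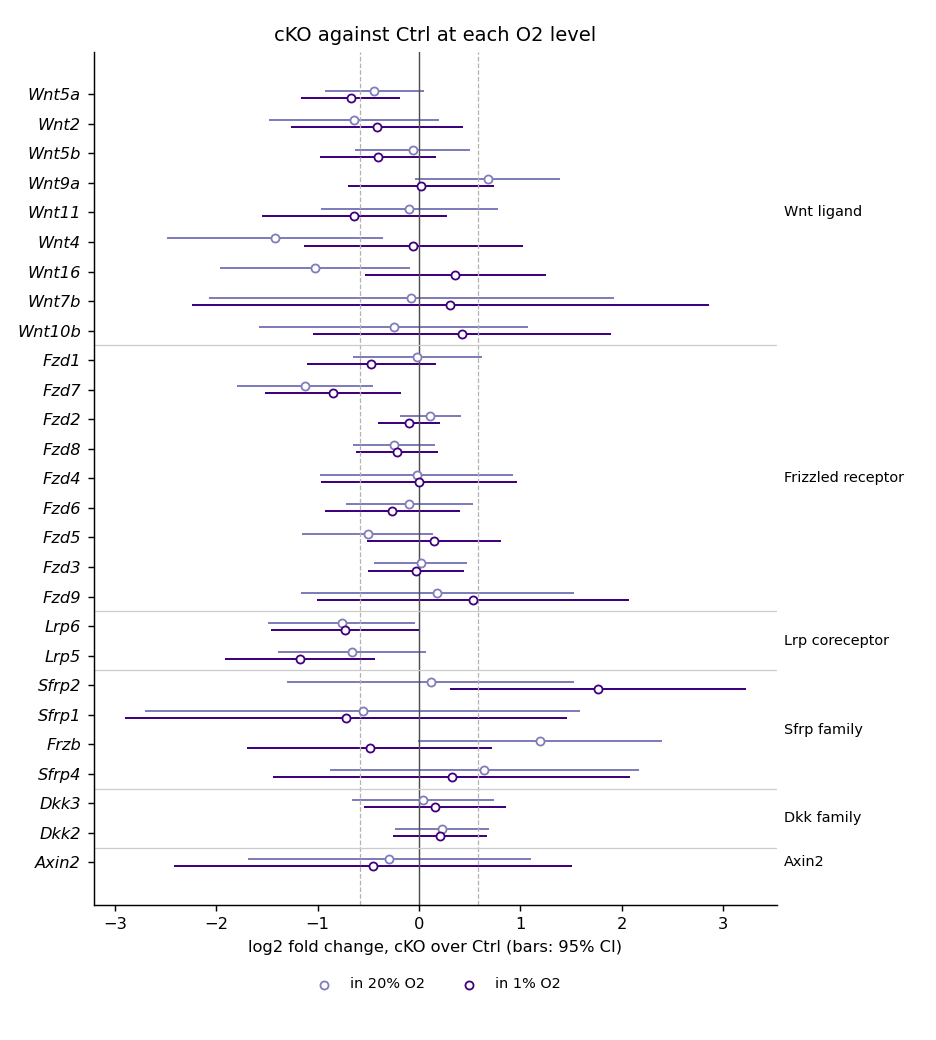
Log2 fold change of cKO over Ctrl TFs for the 27 tested genes in 20% and in 1% O2, with 95% confidence intervals from edgeR; every point is open because none was called, and dashed lines mark a 1.5-fold change. *Fzd7* is at -1.13 and -0.85 and *Lrp5* at -0.66 and -1.18.

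Of the ligands, *Wnt5a* was at 39.6, 44.9 and 53.4 CPM in cKO 1% O2, below the 60.4 to 90.1 CPM of Ctrl 1% O2 (-0.67 ± 0.23; adjusted p = 0.222), and at 52.2, 38.8 and 69.8 CPM in cKO 20% O2, which overlapped with Ctrl. *Wnt4* was at 1.11, 1.3 and 1.59 CPM in cKO 20% O2, where Ctrl replicate 1 stood at 6.30 (-1.43 ± 0.49; adjusted p = 0.249). *Wnt16* was lower in cKO in 20% O2 (-1.02 ± 0.43; adjusted p = 0.327) and at 0.36 ± 0.41 in 1% O2 (0.653), neither passing the test. *Sfrp2* was at 1.77 ± 0.67 in 1% O2 (adjusted p = 0.243), with overlapping groups. The groups of 4 genes did not overlap in 20% O2 (*Fzd7*, *Lrp5*, *Lrp6*, *Wnt16*) and of 4 in 1% O2 (*Fzd7*, *Lrp5*, *Wnt5a*, *Wnt11*), all lower in cKO, against 21.2% and 27.3% of all genes.

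Other tools gave more calls in the set as well as among all genes. DESeq2 called 1 gene of the set in 20% O2 (2.94% of all genes), 1 in 1% O2 (2.12%) and 2 in the sums (*Fzd7* and *Lrp5*; 3.59%). With limma voom and sample quality weights it was 7 in 20% O2 (10%), 3 in 1% O2 (8.04%) and 5 in the sums (5.52%). Of these, 5, 3 and 4 were lower in cKO, with *Fzd7* and *Lrp6* in each. The genes called higher in 20% O2 were *Wnt9a* (log2 1.03; voom adjusted p = 0.00377) and *Frzb* (1.60; 0.0176). In the sums *Wnt9a* was called higher (0.72; 0.0346). The interaction of genotype and O2 called no gene of the set and 0% of all genes, and at an unadjusted p under 0.05 *Wnt16* alone passed, against 1.84% of all genes.

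**Figure D5:**
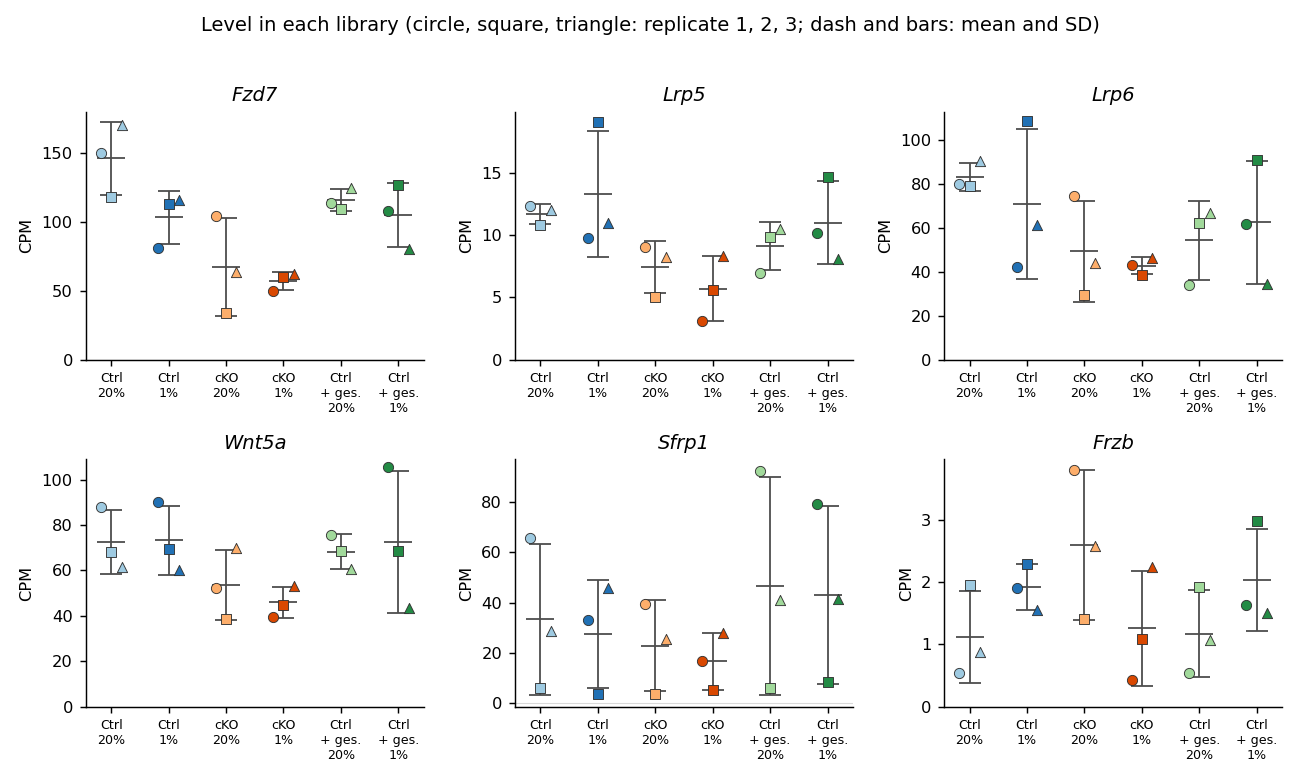
Level in CPM (linear axes) of *Fzd7*, *Lrp5*, *Lrp6*, *Wnt5a*, *Sfrp1* and *Frzb* in each of the 18 libraries, with the mean and SD of each group of 3. *Fzd7* reaches at most 104 CPM in cKO 20% O2 and at least 118 in Ctrl 20% O2, and the replicate 2 squares of *Sfrp1* lie at 8.51 CPM or less in all 6 groups.

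Gesicle treatment called no gene of the set by edgeR at either O2 level, against 0.0247% of all genes in 20% O2 and 0% in 1% O2. At an unadjusted p under 0.05 with the same fold the set also had 0, against 2.41% and 1.45% of all genes. In 20% O2 the smallest p values belonged to *Lrp6*, at 33.9, 62.2 and 66.9 CPM with gesicles (-0.61, 95% CI -1.43 to 0.20), and to *Fzd5*, at 1.58, 2.54 and 2.49 CPM against 3.03, 2.24 and 3.71 in Ctrl (-0.44, 95% CI -1.04 to 0.15). The *Lrp6* libraries with gesicles lay below those of Ctrl, and the *Fzd5* groups overlapped. *Lrp5* also lay below Ctrl, at 6.91 to 10.5 against 10.8 to 12.3 CPM (-0.36, 95% CI -1.06 to 0.33), and *Fzd6* above (0.23, 95% CI -0.31 to 0.77). The share of all genes without overlap was not taken for gesicles against Ctrl. In 1% O2 the smallest p values belonged to *Sfrp2* (1.00, 95% CI -0.32 to 2.31) and to *Wnt4*, at 4.38, 2.56 and 2.83 CPM against 2.26, 1.22 and 1.79 (0.89, 95% CI -0.31 to 2.09). *Fzd7* had -0.33 (95% CI -0.94 to 0.28) in 20% O2 and 0.02 (-0.59 to 0.63) in 1% O2 with gesicles.

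The rest of the pathway was read from a list of 63 genes for Wnt secretion, extracellular modifiers, other receptors, the β-catenin core, planar polarity and targets, of which 50 were tested in the fit of 12 libraries and 53 in that of 18. None was called by edgeR in 8 of the 9 comparisons. With the replicate block within each genotype, which pairs same-numbered Ctrl libraries, 1 was called lower in 1% O2 in Ctrl TFs. It was the R-spondin receptor *Lgr5* (log2 -1.53, edgeR adjusted p = 0.0466). Without the block, in the gesicle arm 1 of 53 was called, *Cthrc1*, a secreted glycoprotein that binds Wnt and Frizzled, at 18.1, 15.9 and 13.6 CPM in 20% O2 and 28.1, 28.4 and 32 CPM in 1% O2 (log2 0.89 ± 0.16; adjusted p = 0.00667). Its groups also stood apart in Ctrl TFs (0.64 ± 0.17; adjusted p = 0.0846) and cKO TFs (0.70 ± 0.17; 0.0552). At an unadjusted p under 0.05 with the same fold, 6, 11 and 10 listed genes passed in the Ctrl, cKO and gesicle O2 comparisons. For cKO against Ctrl it was 6 in 20% O2 (8.53% of all genes), 8 in 1% O2 (9.77%) and 7 in the sums (7.57%). It was 0 in the interaction (1.84%), and 0 and 1 for gesicles against Ctrl in 20% and 1% O2 (2.41% and 1.45%). DESeq2 called 3, 6 and 3 in the O2 comparisons. For cKO against Ctrl it called 2 in 20% O2 (2.94% of all genes), 0 in 1% O2 (2.12%) and 4 in the sums (3.59%), and 0 in the other 3. By either rule no share over all genes was taken for the O2 comparisons, so those counts have no background beside them. The list's median log2 fold change was -0.13, -0.21 and -0.05 in the O2 comparisons of Ctrl, cKO and gesicle-treated TFs, beside 0.00, -0.03 and -0.02 over all genes tested.

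Genes on the opposite strand share exon bases with *Axin2*, *Fzd5*, *Fzd6*, *Sfrp2*, *Wnt5a*, *Wnt7b* and *Wnt11*, and the strand setting of the counting was not given in the sources used here. The partner of *Fzd6*, *Gm26704*, had at most 3 counts in a library, that of *Sfrp2* at most 5 and that of *Axin2* at most 6, where *Axin2* itself had at most 28.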

How the data were processed

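Bulk poly-A RNA-seq libraries (18, paired-end) were analysed from the estimated counts per gene that the authors deposited. Per the study's methods and the submitters' processing notes, reads were trimmed with cutadapt 4.8, checked with FastQC 0.11.8 and MultiQC 1.20, mapped to GRCm38 with STAR 2.7.8a and assigned to genes with RSEM 1.3.3. The deposited values were whole numbers without normalization, and totals per library ranged from 6857558 to 51806453. A chi-square test of counts over genes gave 15.3 or more per degree of freedom for every pair of libraries, so none was deposited in duplicate.

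Genes were filtered with filterByExpr, scaled by TMM (factors 0.962 to 1.03) and tested with edgeR 4.0.16 (quasi-likelihood F test, 1 coefficient per group): 15850 genes in the 12 Ctrl and cKO libraries, 16174 in all 18 libraries for the gesicle arm, and 16715 in the summed profiles of each genotype and replicate number. Calls needed a fold change of 1.5 or more and a p below 0.05 after Benjamini-Hochberg adjustment over all genes tested. CPM values are TMM-scaled, and levels between genes are CPM per kb of merged exon length from GENCODE M21 on GRCm38, which had all 41 genes. All tests are two-sided, and errors are SE for fold changes and SD for levels. The scripts were tested on simulated data. R 4.3.3 and Python 3.11.15 were used.

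Genes with values in every library were those called, the 3 of highest level in each role, and the 2 of smallest p in each comparison. The genes, the pathway list and the cell type lists were chosen with earlier results of these data known.

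Deviations from the group means correlated between same-numbered Ctrl libraries of 20% and 1% O2 (r = 0.271, 0.3 and 0.458) and between Ctrl and gesicle-treated libraries at each O2 level (0.193 to 0.462), so the numbers were read as mice there, but not in every pair of cKO TFs (0.0956, 0.0921 and 0.368) or of the gesicle arm. The alternatives were limma 3.58.1 voom with sample quality weights, DESeq2 1.42.0 (used in the study), edgeR and DESeq2 with the replicate number as a block over all genotypes, edgeR with it within each genotype, scaling by RLE, dropping the filter, a filter of CPM above 1 in 3 or more libraries, no minimum fold, other sets of libraries in the fit, unsummed libraries, and each library left out in turn. The block within each genotype was added for the gesicle comparisons after the data were seen.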

Additional observations from a re-analysis of the deposited data

Results flagged for a closer look

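*Frzb* was not called by edgeR in any O2 comparison, and its 1% and 20% O2 values, taken by replicate number, lay in opposite orders in the arms. Limma voom with sample quality weights called *Frzb* lower in 1% O2 in cKO TFs (log2 -1.04; adjusted p = 0.0453). On the log2(CPM + 0.5) scale the mean 1% minus 20% O2 difference over same-numbered libraries was 0.659 in Ctrl TFs, -0.878 in cKO TFs and 0.639 in gesicle-treated TFs, with all 3 pairs of an arm to 1 side. The cKO value rests largely on replicate 1, whose 1% O2 library is the shallow one with 3 counts of *Frzb*: without that number, a choice made after the data were seen, the mean was -0.209 in cKO TFs, and it was 0.381 in Ctrl TFs and 0.439 in the gesicle arm. The cKO difference minus the Ctrl difference was -1.54, and the gesicle difference minus the cKO difference was 1.52. The first gave an adjusted p of 1 in edgeR's interaction test, and the second was not tested. The numbers were not read as mice in cKO TFs or in the O2 pairs of the gesicle arm, so the pairs there share only a number.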

How the results depend on the processing

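Counts of called genes of the set moved as follows. For the O2 comparisons the share of all genes called was taken in the main edgeR fit alone. The other O2 counts, here and for the pathway list, thus have no background beside them. For 1% against 20% O2 in Ctrl TFs (1 called) DESeq2 gave 2 with and without the replicate block and voom weights 4. In cKO TFs (2 called) DESeq2 and dropping the filter each gave 3, DESeq2 with the replicate block 4, voom weights 7, the replicate block in edgeR 1 and a fit of the 2 groups 0. In the gesicle arm (1 called) DESeq2 gave 3 with and without the replicate block, no filter 2 and the replicate block within each genotype 2. For cKO against Ctrl (0 called), DESeq2 gave 1 with and without the replicate block in 20% O2, 2 with it and 1 without in 1% O2, and 2 in the sums. Voom weights gave 7, 3 and 5, no filter gave 1 in 20% O2 and 1 in the sums, and the unsummed libraries 2. Leaving out 1 library gave 0 to 1 in Ctrl TFs, 0 to 2 in cKO TFs, and 0 to 1 for cKO against Ctrl in 20% O2 and in the sums.

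For the pathway list, O2 comparisons of Ctrl, cKO and gesicle-treated TFs gave 3, 6 and 3 with DESeq2, 3, 6 and 7 with its replicate block, 5, 14 and 5 with voom weights, 1, 2 and 3 without a filter, and 1, 3 and 6 with the replicate block within each genotype. The replicate block in edgeR gave 1 in Ctrl and 2 in gesicle-treated TFs. A fit of all 18 libraries gave 1 in Ctrl and 2 in cKO TFs, a fit of the 2 groups gave 2, 1 and 0, and leaving out 1 library in cKO TFs gave 0 to 4, the 4 without cKO 20% O2 replicate 2. For cKO against Ctrl in 20% O2, DESeq2 gave 2 with and without the replicate block, voom weights 10 and no filter 2. In 1% O2 DESeq2 with the replicate block gave 2 and voom weights 7. In the sums DESeq2 gave 4, with the replicate block 3, voom weights 6, no filter 3 and unsummed libraries 2.

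The cause of these differences was not tested. For the 2 genes of smallest p in each comparison (18 gene and comparison pairs), no log2 fold change changed sign under the alternatives run: 245 kept their side of the threshold, 25 passed it and 14 no longer did. *Fzd6* was called in 12 of 16 alternatives in Ctrl TFs, 13 of 16 in cKO TFs and 15 of 15 in the gesicle arm, and *Wnt16* in 9 of 16, not with the replicate block (adjusted p = 0.066). *Sfrp2* was called by DESeq2 with the replicate block in cKO TFs (log2 1.63), for cKO against Ctrl in 1% O2 (1.96) and in the sums (1.14), with adjusted p of 0.00671, 0.00206 and 2.78e-07, and *Sfrp4* in cKO TFs (-2.27; 0.0115) and in the gesicle arm (-3.17; 0.0016). This block also ties same-numbered Ctrl and cKO libraries, which differ in sex at each number. Their deviations correlated at -0.149, -0.0407 and -0.104 in 20% O2 and at 0.0931, 0.218 and -5.22e-05 in 1% O2. These p-values thus rest in part on a pairing of Ctrl with cKO TFs that has no mouse behind it. Without the block the sums gave *Sfrp2* an edgeR adjusted p of 0.382. In cKO 1% O2 replicate 1 a count of 0 allows up to 0.437 CPM, above the level of *Axin2*, *Wnt7b* and *Wnt10b* in the other 1% O2 libraries of cKO TFs except for *Wnt10b* in replicate 2.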
